A study of Saccharomyces cerevisiae with 12 samples.

Results

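The genes described here encode the proteins of the yeast mitochondrial ribosome. They were taken as the open reading frames (ORFs) whose standard name in the R64 annotation is MRP, MRPL or MRPS followed by a number, which gave 56 of the 6150 ORFs in the table. All 56 had a value on all 12 arrays, so none was lost to a filter. By name, 34 were large-subunit genes (MRPL) and 22 were counted as small-subunit genes (13 MRP and 9 MRPS names). By the uniform ribosomal names that R64 lists as synonyms, 38 belonged to the large subunit and 17 to the small one. MRP7 (bL27m), MRP20 (uL23m), MRP35 (bL35m) and MRP49 (mL61) are large-subunit proteins despite their names. MRP8 (YKL142W) carries no ribosomal name, and it is counted among the 56 by its symbol alone.

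The mitochondrial ribosome translates the few mRNAs of the mitochondrial genome, which in yeast encode core subunits of the respiratory complexes and of ATP synthase together with the ribosomal protein VAR1. All the other ribosomal proteins are encoded in the nucleus, made in the cytosol and imported, so that the organelle depends on nuclear transcripts for its own translation. Part of the proteins descend from bacterial ribosomal proteins and part were gained by mitochondria. Among the 55 genes with a ribosomal name, 24 have relatives in all domains of life, 13 have relatives in bacteria alone and 18 are specific to mitochondria.

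Haploid yeast of strain BY4741 was pregrown on glucose, placed on nylon membranes over solid YP acetate, a carbon source that is used by respiration, and exposed to pure N2 or to pure CO. CO also binds the haem of cytochrome c oxidase. Cells were taken at 15, 30, 45, 60 and 120 min and at 24 h. RNA of the gas-exposed cells (Cy5) was hybridised with RNA of BY4741 cells that stayed in air on the same medium for as long (Cy3). There was 1 array per gas and time and no dye swap. A value is therefore a log ratio of gas over air, given to 2 decimals. The base and the direction are not stated: base 2 was inferred from how far the values spread, and gas over air from the dye of each sample.

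Some limits apply to every value. A ratio cannot tell a change in the gas-exposed cells from one in the air cells of the same time. With 1 array per gas and time, different times stand in for replicates, and p-values measure the spread between these arrays, not between cultures. RNA came from whole cell pellets, so that fewer cells of a kind and less RNA per cell cannot be told apart. Between 5843 and 6056 ORFs had a value on an array, 5672 had one on all 12, and array medians lay between -0.17 and 0.01. The arrays carry no counts, and their number limits the precision.

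As a group, the mitochondrial ribosomal protein genes stayed close to the air cells up to 60 min in CO and up to 120 min in N2. In CO they lay below air at 120 min, with 41 of the 56 genes below 0, where 2968 of the 5672 ORFs tested were. At 24 h the group stood above air in both gases. In N2 their median log2 ratio was 0.09 at 15 min, -0.105 at 30 min, -0.14 at 45 min, -0.12 at 60 min, -0.195 at 120 min and 0.79 at 24 h. In CO it was 0.155, 0.16, 0.115, -0.095 and -0.495 at the same 5 earlier times and 0.33 at 24 h. The median over all ORFs tested moved less, from 0.01 at 15 min to -0.04 at 24 h in N2 and from 0.00 to -0.17 in CO. The genes also spread apart with time. At 15 min the SD of the log2 ratio across the 56 genes was 0.223 in N2 and 0.224 in CO, and at 24 h it was 0.857 and 1.02, against 1.28 and 1.19 across all ORFs at 24 h.

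**Figure D1:**
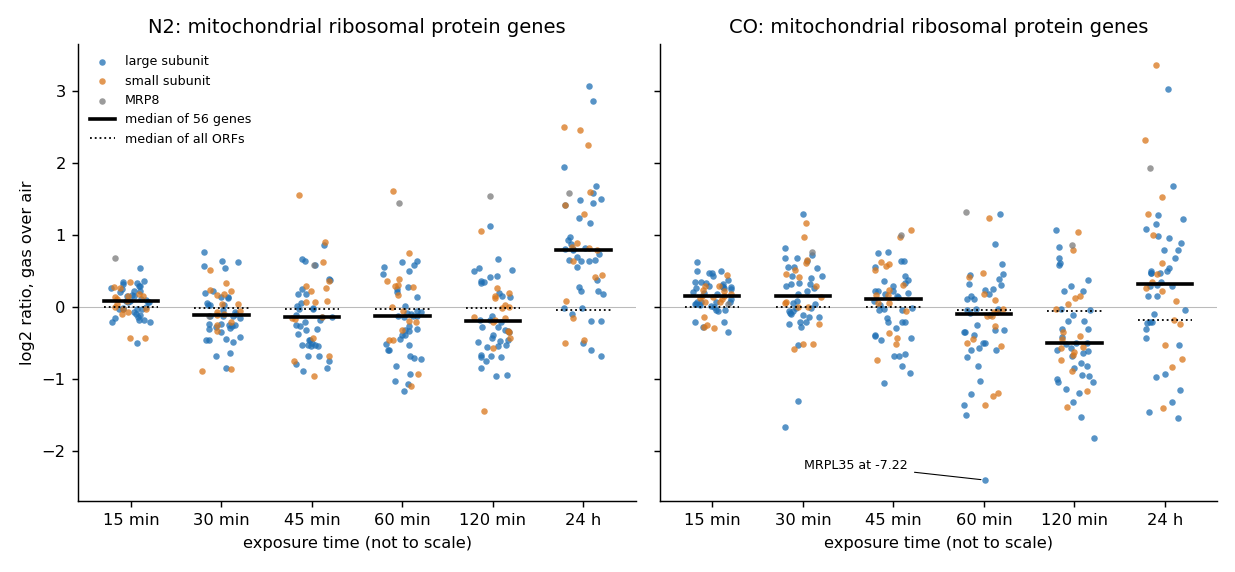
Log2 ratio of gas over air (vertical axis) of each of the 56 genes on each of the 12 arrays, by exposure time (horizontal axis, not to scale), with N2 on the left and CO on the right. Points are genes coloured by annotated subunit, thick lines are medians of the 56 genes and dotted lines medians of all ORFs tested; MRPL35 in CO at 60 min, at -7.22, is drawn at the lower edge. The medians of the 56 genes lie between -0.495 and 0.16 up to 120 min and at 0.79 (N2) and 0.33 (CO) at 24 h.

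The 24 h arrays were compared with the earlier ones in 1 limma fit over all ORFs, as the mean of both 24 h arrays minus the mean of 3 earlier periods (15 and 30 min, 45 min, 60 and 120 min). A gene was called where its p, adjusted by Benjamini and Hochberg's method across 5672 ORFs, was under 0.05. By this test 28 of the 56 genes (50.0%) were higher at 24 h and 3 were lower, where 22.5% of all ORFs were called higher and 25.1% lower. The median difference was 0.60 log2 units over the 56 genes and -0.06 over all ORFs. Positive estimates were found in 45 of the 56 genes and in 2679 of the 5672 ORFs. Without any test, both 24 h values lay above all 10 earlier values in 23 genes, as in 18.5% of all ORFs. In 1 gene, MRPL4, both lay below, as in 20.0% of all ORFs.

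MRPL8 (YJL063C), the bL17m protein of the large subunit, had the largest change. Its log2 ratio in N2 was 0.30, 0.77, 0.65, 0.46 and 0.42 at 15, 30, 45, 60 and 120 min and 3.07 at 24 h, and in CO it was 0.28, 0.43, 0.16, 0.45, 0.68 and 3.03. Its transcript was thus above air on all 12 arrays, and at 24 h it was 8.40-fold above in N2 and 8.17-fold above in CO. The rise at 24 h was 2.60 ± 0.19 log2 units (SE, limma, adjusted p = 2.7e-06).

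MRP1 (YDR347W, mS43) followed. It is a mitochondria-specific small-subunit protein that resembles superoxide dismutases. In N2 its log2 ratio stayed between -0.01 and 0.39 up to 120 min and was 2.50 at 24 h, and in CO it ran between -0.12 and 0.97 before reaching 2.33. The difference at 24 h was 2.09 ± 0.22 (limma, adjusted p = 3.2e-05), and both 24 h values stood clear of the 10 earlier ones. With quantile normalization it was 0.84 and missed the threshold (limma, adjusted p = 0.051).

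MRPS12 (YNR036C, uS12m) is the relative of the bacterial protein that sits at the decoding centre. Its ratios were above 0 on every array. They were 0.35, 0.52, 1.56, 1.61, 0.27 and 2.47 in N2 in order of time, and 0.45, 1.17, 0.97, 1.24, 1.05 and 3.37 in CO, the last being the highest value of any of the 56 genes and a 10.3-fold excess over air. Its 24 h change was 1.94 ± 0.33 (limma, adjusted p = 0.00063), a call that quantile normalization of the arrays ended (adjusted p = 0.53). RSM19 (YNR037C), also a small-subunit gene, lies next to MRPS12 on the same strand, and its log2 ratio at 24 h was 2.07 in N2 and 1.31 in CO.

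MRPS5 (YBR251W, uS5m) and MRPS8 (YMR158W, uS8m), both small-subunit proteins with relatives in all domains of life, reached 24 h from different starting points. MRPS5 stayed between -0.06 and 0.36 in N2 up to 120 min and between -0.07 and 0.17 in CO, then stood at 2.26 and 1.53. MRPS8 was below 0 on all 10 earlier arrays, between -0.92 and -0.35 in N2 and between -1.36 and -0.25 in CO, and stood at 1.42 and 1.01 at 24 h. The changes were 1.81 ± 0.19 for MRPS5 (limma, adjusted p = 3.2e-05) and 1.86 ± 0.26 for MRPS8 (limma, adjusted p = 0.00016).

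MRPL49 (YJL096W, bL21m) rose by 1.62 ± 0.18 log2 units (limma, adjusted p = 4.6e-05), with 1.69 in N2 and 1.28 in CO at 24 h. MRP17 (YKL003C, bS6m) was at 1.30 in both gases at 24 h and rose by 1.36 ± 0.23, a call lost with quantile normalization (0.76, limma adjusted p = 0.065). MRP13 (YGR084C, mS44) rose by 1.34 ± 0.18 although its 24 h values were only 0.45 and 0.46, since its earlier values all lay below 0. MRPL11 (YDL202W, uL10m), which forms the base of the ribosomal stalk, rose by 1.23 ± 0.20 and stood at 0.79 and 0.48. Adjusted p for these 3 genes lay between 0.00015 and 0.00054 in the same limma fit.

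MRPL37 (YBR268W, mL54) was also called higher, by 1.26 ± 0.45 (limma, adjusted p = 0.0363), but its gases went apart. It was at 2.87 in N2 at 24 h against -0.12 to 0.65 before, while in CO it was at 0.79 at 24 h and between 0.50 and 1.30 before. Without the N2 array of 24 h the estimate was -0.06 (limma, adjusted p = 0.909), so that call rests on 1 array.

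**Figure D2:**
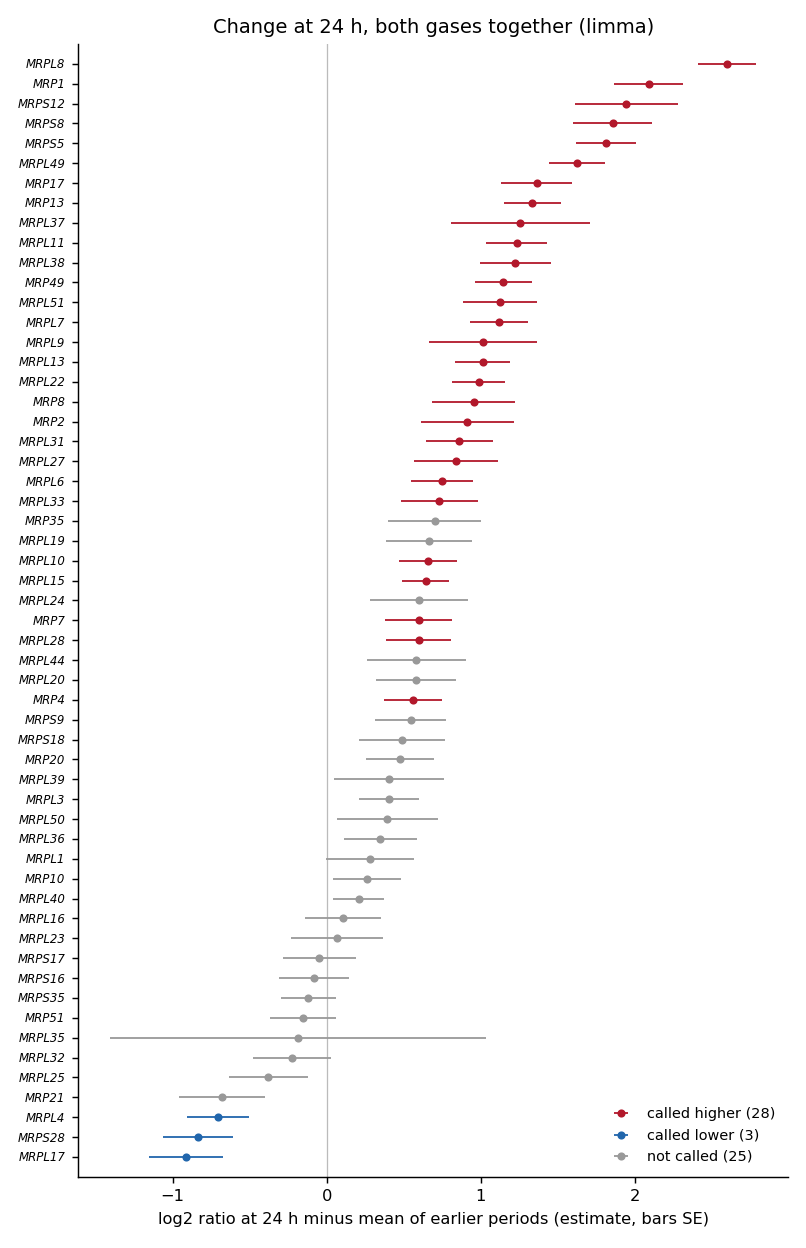
Difference in log2 ratio between 24 h and the mean of the 3 earlier periods, both gases together (horizontal axis), for each of the 56 genes (vertical axis), as limma estimates with bars of 1 SE. Colours mark the 28 genes called higher, the 3 called lower and the 25 not called; MRPL8 leads at 2.60 and MRPL17 is lowest at -0.92, while the wide bar of MRPL35 carries its value of -7.22.

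The 3 genes called lower were MRPL17, MRPS28 and MRPL4. MRPL17 (YNL252C, mL46) was at -0.59 in N2 and -1.15 in CO at 24 h, a change of -0.92 ± 0.24 (limma, adjusted p = 0.0085). MRPS28 (YDR337W, uS15m) was at -0.49 and -1.40, and its change was -0.84 ± 0.23. MRPL4 (YLR439W, uL29m), which lies near the exit of the tunnel that carries the new protein, was at -0.49 and -0.97 after values of -0.31 to 0.41, a change of -0.71 ± 0.20. All 3 were lower in CO than in N2 at 24 h, and the 3 calls were lost without the CO array of 24 h or with quantile normalization.

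The other 18 genes called higher were MRP2, MRP4, MRP7, MRP8, MRP49, MRPL6, MRPL7, MRPL9, MRPL10, MRPL13, MRPL15, MRPL22, MRPL27, MRPL28, MRPL31, MRPL33, MRPL38 and MRPL51, with changes between 0.56 (MRP4) and 1.22 (MRPL38). MRP49 changed by 1.15 ± 0.18, MRP8 by 0.95 ± 0.27 and MRP7 by 0.60 ± 0.22. MRP7 is the relative of the bacterial protein that reaches into the peptidyl transferase centre, and its call (limma, adjusted p = 0.0393) was lost under 11 of the alternative settings. Quantile normalization left 11 mitochondrial ribosomal protein genes called higher in place of 28. The genes of this list that lost the call by it are not all named here. Among them were MRP49 (0.29, limma adjusted p = 0.39) and MRP8 (0.00, limma adjusted p = 0.996). The call of MRP8 was also lost with array weights (limma, adjusted p = 0.107). Without the CO array of 24 h the estimate of MRP8 was 0.76. MRP4, MRPL19 and MRPL51 overlap another protein-coding gene in R64, and the strand and position of the probes were not used here.

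The remaining 25 genes were not called at 24 h. Their estimates ran from -0.68 (MRP21) to 0.70 (MRP35). MRPS35 (YGR165W, mS45) moved little on any array, with log2 ratios between -0.19 and 0.00 in N2 and between -0.44 and 0.24 in CO. MRP21 (YBL090W, bS21m) was between 0.13 and 0.28 in N2 up to 120 min and at -0.46 at 24 h, and it was at -0.83 in CO at 24 h after values of -1.16 to 0.58. The SE of MRPL35 was 1.22, since it holds the value of -7.22 described further on.

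At 24 h, 18 of the 56 genes were at least 2-fold above air in N2, where 19.9% of all ORFs were, and 0 were 2-fold below, where 20.7% were. In CO 12 genes were at least 2-fold above (16.1% of all ORFs) and 5 at least 2-fold below (21.3%). Those 5 were MRPL17, MRPL23, MRPL32, MRPL35 and MRPS28. The 2 highest genes were MRPL8 and MRPL37 in N2, and MRPS12 and MRPL8 in CO. The lowest were MRPL32 (-0.67) and MRPL17 (-0.59) in N2, and MRPL32 (-1.54) and MRPL35 (-1.46) in CO.

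How far the 24 h counts rest on single arrays was measured by leaving each out. Without the N2 array of 24 h, 18 of the 56 genes were higher and 3 lower (15.6% and 18.2% of all ORFs), and without the CO array 30 were higher and 0 lower (19.7% and 18.7%). Quantile normalization, which gives all arrays 1 distribution of values, left 11 higher and 0 lower, where 6.81% of all ORFs were called higher. The median difference of the 56 genes was 0.31 without the N2 array, 0.87 without the CO array and 0.32 with quantile normalization. The fit takes the N2 and CO arrays of a time as separate, though 24 h is a single time and the arrays of a time are paired. With both gases averaged at each time, which leaves 6 values per ORF and 2 residual degrees of freedom, 21 were higher and 3 lower (17.0% and 18.6% of all ORFs).

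Before 24 h the genes went in different directions, and a mean over the 6 times joins them. The mean of the 6 N2 ratios was tested against 0 in a limma fit of both gases, and 8 of the 56 genes were higher and 4 lower, where 17.6% of all ORFs were higher and 20.2% lower. In CO also 8 were higher and 4 lower, against 12.7% and 19.4% of all ORFs. The median of the 56 means was -0.02 in N2 and -0.01 in CO, beside -0.02 and -0.04 over all ORFs. With time as a block, since arrays of the same time are paired by the labels, 16 were higher and 10 lower in N2 (28.2% and 30.7% of all ORFs). In CO 15 were higher and 15 lower (25.4% and 30.4%). That block takes the spread between times out of the residual. Its p-values therefore do not measure the spread over the times that stand in for replicates. Without the 24 h arrays 8 were higher and 11 lower in N2 (20.9% and 22.5% of all ORFs), and 10 were higher and 11 lower in CO (17.3% and 21.7%). Without the N2 array of 24 h alone 12 were higher and 7 lower in CO (18.1% and 23.4%). Without the arrays of 45 min, or those of 60 min, 5 were called in N2, all higher. Of all ORFs 10.9% were then higher and 13.2% lower, or 11.8% and 13.9%. Without the N2 array of 45 min alone 6 were called, where 13.3% of all ORFs were higher and 15.3% lower.

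The genes above air in N2 were MRPS12, MRP8, MRPL28, MRP49, MRPL33, MRPS17, MRP20 and MRPS16. The call of MRPS16 was lost under 18 alternative settings, among them quantile normalization. Those in CO were MRPS12, MRP8, MRPL37, MRPL28, MRP49, MRPL33, MRPS17 and MRPL10. The air references of both gases are of the corresponding times and may be shared, so the likeness of these lists is not given as a result. MRPS12 had a mean log2 ratio of 1.13 ± 0.89 in N2 (SD, n = 6 times, limma adjusted p = 0.0198) and 1.38 ± 1.02 in CO (n = 6, limma adjusted p = 0.0091).

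MRPL28 (YDR462W, mL40), a mitochondria-specific protein, was above air on every array. Its log2 ratios in N2 were 0.07, 0.57, 0.67, 0.63, 0.54 and 1.50 in order of time, and in CO 0.43, 0.56, 0.76, 0.88, 1.07 and 0.96. Its lowest values were those of 15 min in both gases. The means were 0.66 ± 0.46 in N2 (SD, n = 6, limma adjusted p = 0.0060) and 0.78 ± 0.24 in CO (n = 6, limma adjusted p = 0.0030). MRP49, MRPL33 and MRPS17 averaged between 0.56 and 0.65 in each gas, and MRP20, known to lie at the tunnel exit, averaged 0.52 in N2. MRP20, MRP49, MRPL8, MRPL28, MRPL33, MRPS12 and MRPS17 were above 0 on all 12 arrays, 7 of 56 genes where 11.0% of all ORFs were. None of the 56 was below 0 on all 12, where 13.6% of all ORFs were.

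MRP8, the member with no ribosomal name, was 0.68, -0.12, 0.59, 1.45, 1.55 and 1.59 in N2 and 0.04, 0.77, 1.00, 1.33, 0.86 and 1.94 in CO. Its means of 0.96 and 0.99 were both called (limma, adjusted p = 0.0090 and 0.0090). It was also the 1 gene of the 56 called higher at 60 and 120 min than at 15 and 30 min, a call that was lost under 12 alternative settings. Without it the count of genes above air falls from 8 to 7 in each gas.

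MRPL32 (YCR003W, bL32m) had the lowest mean of the genes called, in both gases. It is a large-subunit protein that the m-AAA protease cuts after import, a step on which ribosome assembly is known to depend. Its log2 ratios were -0.10, -0.67, -0.88, -1.16, -0.94 and -0.67 in N2 and 0.03, -0.53, -1.05, -1.49, -1.81 and -1.54 in CO. It was thus below air from 30 min on in both gases and still at 24 h. The means were -0.74 ± 0.36 in N2 (SD, n = 6, limma adjusted p = 0.0160) and -1.06 ± 0.70 in CO (n = 6, limma adjusted p = 0.0029).

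MRPL27 (YBR282W, mL41), MRP13 and MRPL40 (uL24m, at the tunnel exit) were the other genes below air in N2, at means of -0.53, -0.72 and -0.40. In CO these were MRPL27 (-0.87), MRPL23 (-0.69, uL13m) and MRPS18 (-0.56, uS11m). MRPL27 was between -0.84 and -0.50 in N2 and between -1.67 and -0.34 in CO up to 120 min, and at 24 h it was 0.23 and -0.20. The mean over times therefore understates how far it lay below air in the first hours.

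**Figure D3:**
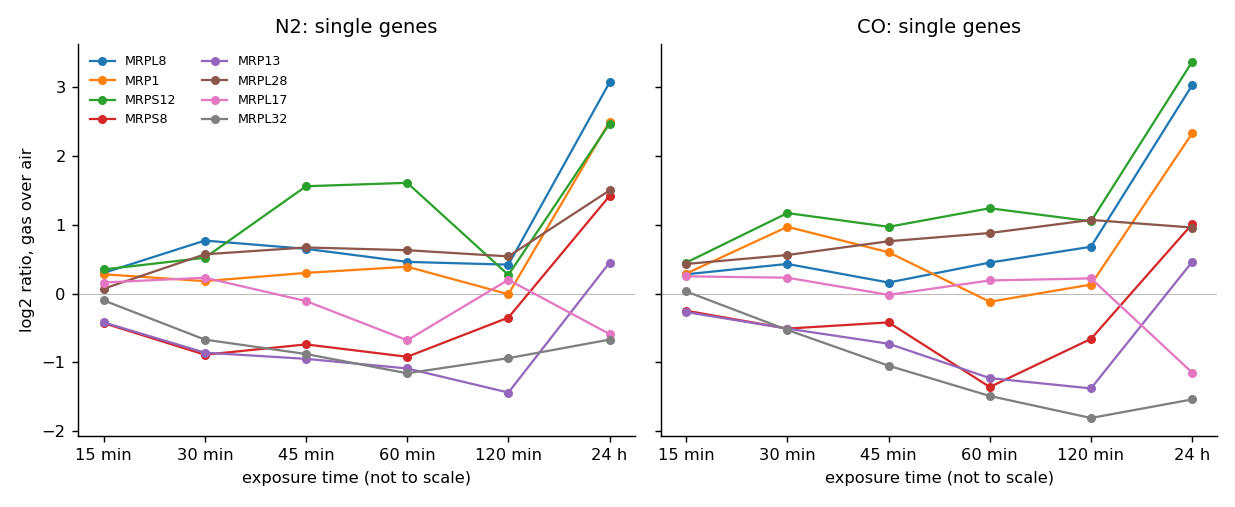
Log2 ratio of gas over air (vertical axis) by exposure time (horizontal axis, not to scale) for 8 single genes, 1 array per point, with N2 on the left and CO on the right. MRPL8, MRP1 and MRPS12 stand highest of these at 24 h, MRP13 and MRPS8 cross from below to above 0, MRPL28 is above 0 throughout, and MRPL32 ends at -0.67 (N2) and -1.54 (CO).

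The arrays of 30, 45 and 60 min were therefore also tested by themselves, in a limma fit with a mean for each gas in 4 periods and 4 residual degrees of freedom. In N2 13 of the 56 genes were below air and 5 above, where 19.5% of all ORFs were below and 16.8% above. In CO 8 were below and 9 above, where 18.2% and 13.1% of all ORFs were. The median of the 56 genes was -0.14 in N2 and 0.05 in CO. These shares of lower genes lie near the background. Counts fell when arrays were left out, and so did the shares of all ORFs, given in brackets as below and above. In N2 1 was below and 1 above without the arrays of 45 min (5.29% and 4.21%). Without the N2 array of 45 min alone 3 were below and 1 above (8.78% and 7.14%), and without that of 60 min 6 and 3 (11.8% and 10.8%). In CO the count went to 2 below and 3 above without the arrays of 45 min (6.08% and 3.84%). It went to 6 and 4 without the CO array of 45 min alone (10.7% and 7.23%), and to 3 and 7 without that of 60 min (9.47% and 5.17%).

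In N2 the genes below air at 30 to 60 min were MRP13, MRPL32, MRPS8, MRPL11, MRPL27, MRPL1, MRPL23, MRPL7, MRPL40, MRPL3, MRP10, MRPL15 and MRPL22. Their mean log2 ratios ran from -0.97 (MRP13) to -0.42 (MRPL22). The genes above air were MRPS12 (1.23), MRPL8 (0.63), MRPL28 (0.62), MRP49 (0.49) and MRP20 (0.42). MRP10 (mS37) is a small cysteine-rich protein of the small subunit, and MRPL1 (uL1m) belongs to the mobile stalk next to the exit site for tRNA.

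In CO the genes below air at 30 to 60 min were MRPL27 (-1.24), MRPL32 (-1.02), MRP35 (-0.84), MRP13 (-0.82), MRPS8 (-0.76), MRPS18 (-0.59), MRPL1 (-0.50) and MRPL11 (-0.48). Those above were MRPS12 (1.13), MRP8 (1.03), MRPL37 (0.97), MRPL33 (0.76), MRPL28 (0.73), MRPS17 (0.72), MRPL24 (0.55), MRP49 (0.51) and MRPL36 (0.43). MRP35 was -1.30, -0.21 and -1.02 at 30, 45 and 60 min of CO and -0.06, -0.14 and -0.39 in N2. Its mean over all 6 N2 arrays was near 0 and was not called.

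At 60 min MRPS12 (1.61) and MRP8 (1.45) were highest in N2, and MRPL32 (-1.16) and MRP13 (-1.09) lowest. In CO MRP8 (1.33) and MRPL37 (1.30) were highest. The lowest value in CO at 60 min, -7.22 for MRPL35 (YDR322W, mL38), was also the lowest of any ORF on that array. On its other 5 CO arrays MRPL35 was between -1.46 and 0.63, and in N2 at 60 min it was -1.06. Leaving that value out changed no count of the 56 genes in the comparisons above.

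The arrays of 60 and 120 min were set against those of 15 and 30 min in the fit of period and gas. By limma 4 of the 56 genes were lower and 1 higher at the later times, where 9.29% of all ORFs were lower and 3.44% higher, and the median difference was -0.30 beside -0.02 over all ORFs. The lower ones were MRPL32 (-1.03 ± 0.23, adjusted p = 0.0171), MRP13 (-0.77 ± 0.17, adjusted p = 0.0155), MRPL13 (-0.68 ± 0.16, adjusted p = 0.0232) and MRPL7 (-0.62 ± 0.17, adjusted p = 0.0355), and the higher one was MRP8 (0.95 ± 0.24, adjusted p = 0.0297). Calls here hang on single arrays. None was left with the gases averaged at each time, where 0 of all ORFs were called. Below, shares of all ORFs lower and higher stand in brackets. None was left without the CO (1.66% and 0.282%) or the N2 array of 15 min (1.94% and 0.353%). The same held without both arrays of 120 min (0.617% and 0.3%) and with quantile normalization (1.73% and 0.934%). Without the CO array of 120 min 3 were left (4.76% and 1.46%), and without the N2 array 2 (3.91% and 1.18%). At 120 min 9 genes were at least 2-fold below air in CO, where 13.4% of all ORFs were, and 1 (MRP13) in N2, where 11.9% were.

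A group of 7 genes was below 0 on all 8 arrays of 30 to 120 min and above 0 on both arrays of 24 h, where 1.59% of all ORFs were. They were MRP13, MRP35, MRPL11, MRPL15, MRPL22, MRPL51 and MRPS8. MRP13 is the clearest case. Its log2 ratios were -0.42, -0.86, -0.95, -1.09 and -1.44 in N2 and -0.27, -0.51, -0.73, -1.23 and -1.38 in CO up to 120 min, and 0.45 and 0.46 at 24 h. MRPL11 was between -0.92 and -0.20 in N2 and between -1.04 and -0.05 in CO before it stood at 0.79 and 0.48. The pattern was counted after the values were seen and was not tested.

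Large-subunit and small-subunit names were compared by counts and medians. At 24 h against earlier, 17 of 34 MRPL genes were higher and 2 lower, and 11 of 22 MRP and MRPS genes were higher and 1 lower, where 22.5% of all ORFs were higher and 25.1% lower. Their median differences were 0.62 and 0.58 log2 units. By annotated subunit 19 of 38 large and 8 of 17 small genes were higher. In N2 at 30 to 60 min the names stood further apart, with 10 of 34 MRPL genes below air and 2 above (median -0.24), and 3 of 22 small-subunit names below and 3 above (median 0.12). Of all ORFs 19.5% were below and 16.8% above. With the annotated subunits the medians were -0.21 and 0.10. In CO at these times the medians were -0.01 and 0.15 by name, and 0.00 and 0.06 by annotation. The difference between subunits was not tested.

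On single arrays the median of the MRPL names minus that of the small-subunit names lay between -0.365 (45 min) and -0.045 (15 min) in N2, below 0 on all 6 arrays. In CO it lay between -0.22 and 0.095. By annotated subunit it was between -0.305 and -0.005 in N2 and between -0.16 and 0.065 in CO. At 15 min of N2 the medians of the annotated subunits were nearly equal, 0.085 and 0.09. In CO the sign depended on the array and on how MRP7, MRP20, MRP35, MRP49 and MRP8 were assigned.

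The genes were also read by the ancestry of their proteins. At 24 h 13 of 24 genes with relatives in all domains of life were higher, 4 of 13 of those with bacterial relatives alone, and 10 of 18 mitochondria-specific ones, with medians of 0.66, 0.41 and 0.62, where 22.5% of all ORFs were higher. The classes were not tested against each other. Of 7 proteins known to line the tunnel exit, 3 were higher and 1 lower at 24 h (22.5% and 25.1% of all ORFs). In N2 at 30 to 60 min 4 were below air and 1 (MRP20) above (19.5% and 16.8% of all ORFs). This list was not tested as a set.

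CO and N2 were compared with time as a block. Of the 56 genes 0 were called, and 0 of 5672 ORFs were (0% of all), by limma with adjustment over all ORFs. At an unadjusted p under 0.05 there were 2 of the 56 genes and 584 of all ORFs. The median difference CO minus N2 was -0.02 for the 56 genes and -0.03 over all ORFs. A difference that misses the threshold with 5 residual degrees of freedom does not show that the gases acted alike.

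The 24 h arrays of the gases did differ in these genes as single measurements. The value in N2 was above that in CO in 43 genes and below it in 11, and 2 were equal, while N2 was above CO in 54.1% of all ORFs. The median of N2 minus CO was 0.42 over the 56 genes and 0.06 over all ORFs. In 10 genes N2 was at least 2-fold above CO (11.8% of all ORFs) and in 0 the reverse (3.98%). Those 10 were MRP2, MRPL9, MRPL20, MRPL23, MRPL35, MRPL37, MRPL38, MRPL44, MRPL50 and MRPS18. MRPL37 had 2.87 in N2 and 0.79 in CO, MRPL23 had 0.28 and -1.32, and MRPS18 had 0.83 and -0.72. At 120 min N2 was above CO in 38 genes and below in 18, while it was above in 51.0% of all ORFs. The median difference was 0.21 beside 0.01 over all ORFs. Each is 1 array per gas, so neither difference has a replicate.

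**Figure D4:**
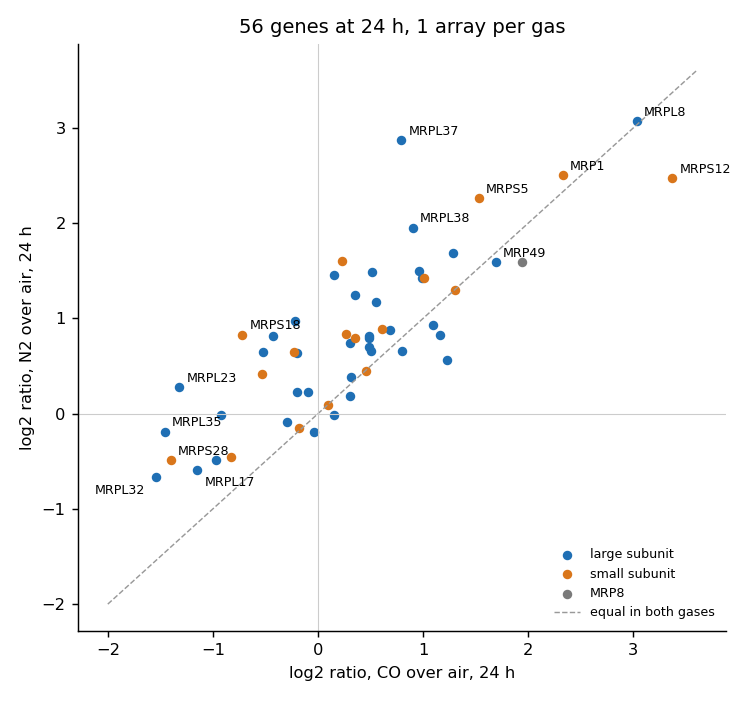
Log2 ratio at 24 h in N2 (vertical axis) against CO (horizontal axis) for the 56 genes, 1 array per gas, coloured by annotated subunit, with the line of equal values dashed. The points lie above the line in 43 genes and below it in 11; MRPL8, MRP1 and MRPS12 are high in both gases and MRPL37, MRPL23 and MRPS18 lie well above the line.

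Other proteins of the mitochondrial ribosome, whose names do not follow the MRP rule, were read from a list of RSM and other names. Of the 22 tested, 16 were higher at 24 h and 0 lower, with a median of 0.91, where 22.5% of all ORFs were higher and 25.1% lower. The strongest were IMG1 (1.84 ± 0.24), MHR1 (1.63 ± 0.16), RTC6 (1.42 ± 0.21) and MRX14 (1.23 ± 0.21) in the large subunit, and SWS2 (1.35 ± 0.24), RSM19 (1.31 ± 0.20) and RSM10 (1.15 ± 0.20) in the small one. On the means over all times, 5 were above air and 4 below in N2, and 2 and 2 in CO, which lies near or under the shares of all ORFs (17.6% above and 20.2% below in N2, 12.7% and 19.4% in CO). RSM22, a methyltransferase-like protein of the small subunit, was below air in both gases at -1.09 in N2 and -1.25 in CO. RSM7, measured on 8 arrays, and MNP1, on 4, were not tested.

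The proteins that work with this ribosome were read from further lists. The shares of all ORFs to set beside these counts are 20.2% below air and 17.6% above in N2, 19.4% and 12.7% in CO, and 22.5% higher and 25.1% lower at 24 h. Of 8 mitochondrial translation factors 4 were below air in N2 and 5 in CO, and 0 were above. The elongation factor MEF1 averaged -1.34 in N2 and -1.15 in CO, and the initiation factor IFM1 -0.99 and -1.22. At 24 h against earlier 3 of the 8 were higher, among them MEF2 (1.64 ± 0.21), which acts in ribosome recycling, and AIM23 (1.49 ± 0.17), another initiation factor. Of 13 mitochondrial tRNA synthetases 6 were below air in N2 and 5 in CO, and 0 were above. MSY1, for tyrosine, averaged -0.80 in N2 and -0.88 in CO. At 24 h 6 were higher, led by MSK1 (1.38 ± 0.23) and SLM5 (1.19 ± 0.23), and 1 was lower.

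Translational activators are proteins that each help to translate particular mitochondrial mRNAs. Of 17 tested, 8 were below air in each gas (20.2% of all ORFs in N2, 19.4% in CO) and 1 was above in N2 (17.6%). AEP2, which acts on the ATP9 mRNA, averaged -1.37 in N2 and -1.39 in CO. At 24 h 7 of the 17 were higher and 1 lower (22.5% and 25.1% of all ORFs). MSS51, the activator of COX1, changed by 1.59 ± 0.22 and CBP6, which binds the ribosome for cytochrome b synthesis, by 1.58 ± 0.24. CBP1, which stabilises the cytochrome b mRNA, averaged -0.73 in CO and changed by 1.20 ± 0.23 at 24 h. Of 9 assembly and membrane-insertion factors, 2 were below air in N2 and 3 in CO. The RNA helicases MSS116 (-1.34 and -1.22) and MRH4 (-1.20 and -1.08) were the lowest. At 24 h OXA1, the insertase to which the ribosome docks, was higher by 1.72 ± 0.18, and the GTPase MTG1 was lower, with a change of -1.82 ± 0.20.

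Of 5 genes of mitochondrial transcription and DNA maintenance tested, 3 were lower at 24 h and 0 higher (25.1% and 22.5% of all ORFs). RPO41, the mitochondrial RNA polymerase, averaged -0.91 in N2 (limma, adjusted p = 0.0090) and -1.04 in CO (limma, adjusted p = 0.0054), and changed by -0.87 ± 0.25 at 24 h (limma, adjusted p = 0.0122). Its specificity factor MTF1 was at -0.87 and -0.79 and changed by -0.73 at 24 h. Of 26 nuclear-encoded subunits of the respiratory complexes and ATP synthase, 10 were higher at 24 h and 0 lower (22.5% and 25.1% of all ORFs). Their median was 0.61. ATP1 (2.48 ± 0.30), COX13 (2.32 ± 0.36) and CYT1 (2.06 ± 0.23) led.

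**Figure D5:**
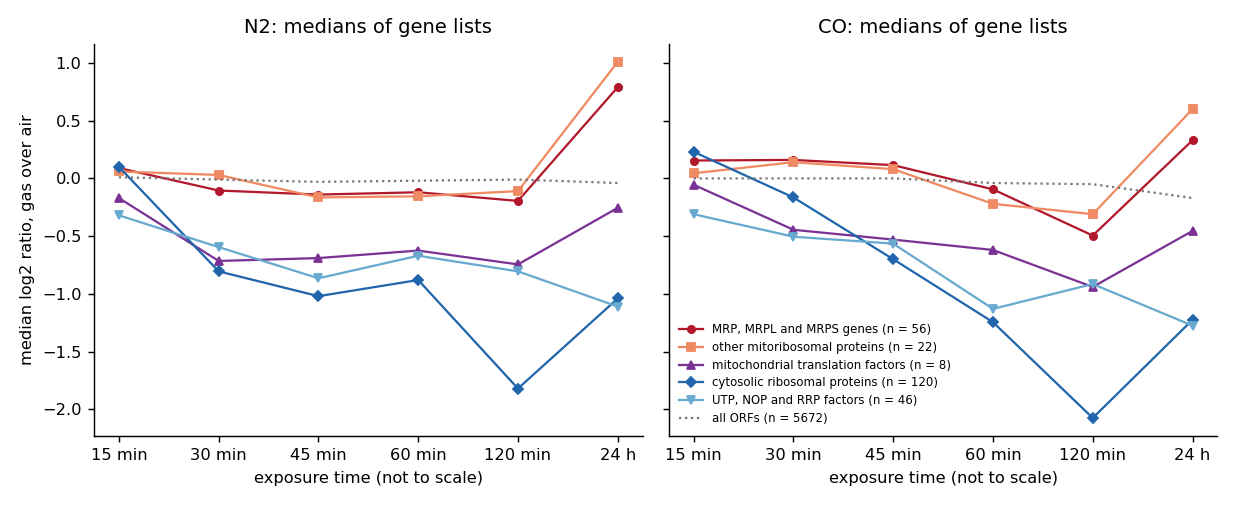
Median log2 ratio of gas over air (vertical axis) of 5 gene lists and of all ORFs tested on each array, by exposure time (horizontal axis, not to scale), with N2 on the left and CO on the right. At 24 h the 56 genes (0.79 in N2, 0.33 in CO) and the other mitoribosomal proteins (1.01 and 0.60) lie above 0, and cytosolic ribosomal proteins (-1.04 and -1.23) and UTP, NOP and RRP factors (-1.11 and -1.27) lie below.

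Cytosolic ribosomal protein genes, which serve the ribosomes of the cytosol, were read beside them. Of 120 tested, 67 were below air in N2 and 0 above (20.2% and 17.6% of all ORFs), and 64 and 1 in CO (19.4% and 12.7%). At 60 and 120 min 92 of the 120 were called lower than at 15 and 30 min, where 9.29% of all ORFs were, with a median of -1.31. Without the 15 min arrays 0 of all ORFs were called lower in that comparison. At 24 h their median level was -1.04 in N2 and -1.23 in CO, against 0.79 and 0.33 for the mitochondrial ribosomal protein genes. Of 46 UTP, NOP and RRP genes, most of which act in making cytosolic ribosomes, 31 were below air in each gas. The difference between mitochondrial and cytosolic lists was not tested.

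Regulators known to act on mitochondrial ribosomal protein genes or on genes of the other lists were read by name. PUF3, an RNA-binding protein known to bind mRNAs of mitochondrial ribosomal proteins and to affect their decay, averaged 0.40 ± 0.17 (SE) in N2 (limma, adjusted p = 0.0688) and 0.61 ± 0.17 in CO (limma, adjusted p = 0.0139). It rose at 24 h by 0.88 ± 0.20 (limma, adjusted p = 0.0034) to 1.23 in both gases. HAP4, the activating subunit of the factor that drives respiratory genes, was below air at 30 to 60 min, at -0.79 in each gas (limma, adjusted p = 0.0068 in N2 and 0.0079 in CO). It was at 2.03 in N2 and 1.79 in CO at 24 h, a rise of 2.54 ± 0.24. SFP1, an activator of cytosolic ribosomal protein and biogenesis genes, was lower at 24 h, with a change of -1.41 ± 0.20. These are transcript ratios, and the activity of the proteins was not measured.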

How the data were processed

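The authors deposited 1 table of log ratios per ORF and array, used here as log2 values of gas over air. What base and direction they have, and how background and dyes were treated, is not stated per the file headers or labels, and no further normalization was applied. Symbols, synonyms and neighbours came from R64, to which 5651 of 6150 ORFs matched. ORFs with values on all 12 arrays entered lmFit and eBayes of limma 3.58.1 (R 4.3.3), with Benjamini-Hochberg adjustment over 5672 ORFs and a threshold of 0.05. The procedure was tested on simulated data with independent noise on each array. That simulation does not cover the link between arrays of 1 time or the order of times. The labels pair arrays of both gases by time, and deviations from the gas means at 1 time had correlations of 0.255 to 0.776 between gases, across ORFs.

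The members, the other gene lists and the tests were chosen with earlier results of these data known. Genes were named by a rule: up to 10 called in each direction of a comparison by size, those called against most members, the 2 highest and 2 lowest at 24 h and at 60 min, every MRP name that is not a small-subunit protein, and up to 4 per other list. Alternatives were median centring, quantile normalization, array weights, ORFs on at least 10 arrays, a replicate block, averaging the gases at each time and leaving out times or arrays.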

Additional observations from a re-analysis of the deposited data

Results flagged for a closer look

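In each gas the 6 values of a gene, and the medians of the gene lists, were examined for a lowest or highest array far from the other 5 (a gap of over 0.625 of the range, Dixon's critical value). Of 118 groups 28 held such a value, and 24 of the 28 were the array of 24 h, 21 of them above 0. The critical value assumes exchangeable values, for which about 1 in 20 groups would be flagged. Ordered times do not meet this, and all ORFs spread widest at 24 h (SD 1.28 in N2 and 1.19 in CO). The groups are also not independent. No share over all ORFs is given, so the count is not a result about these genes. In N2 the values at 24 h were 3.07 for MRPL8, 2.87 for MRPL37, 2.50 for MRP1, 2.26 for MRPS5, 1.95 for MRPL38, 1.69 for MRPL49, 1.60 for MRP2, 1.49 for MRPL51, 1.45 for MRPL9 and 1.42 for MRPS8. Smaller values at 24 h of N2 were 0.97 for MRPL50, 0.81 for MRPL22, 0.66 for MRP7 and 0.23 for MRPL27, and MRP21 stood apart on the low side at -0.46.

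The median of the 56 genes at 24 h of N2 (0.79) and that of the small-subunit names (0.835) stood apart from the other 5 times too. In CO the values at 24 h were 3.37 for MRPS12, 3.03 for MRPL8, 1.69 for MRP49, 1.53 for MRPS5 and 1.09 for MRPL31, and on the low side -0.97 for MRPL4 and -1.15 for MRPL17. The 4 values at other times were -7.22 for MRPL35 at 60 min of CO, -0.41 for MRPL36 and -0.73 for MRPS9 at 120 min of CO, and 0.91 for MRP51 at 45 min of N2.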

How the results depend on the processing

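Counts of the 56 genes called moved with the settings, and the cause was not tested. The shares of all ORFs, given in brackets as lower and higher, often moved too. Quantile normalization gave 19 in N2 against air (24.5% and 21.3%) and 21 in CO against air (24.0% and 20.2%). It gave 11 at 24 h (6.01% and 6.81%) and 0 at 60 and 120 min (1.73% and 0.934%). Array weights gave 27 (28.1% and 25.6%), 23 (23.0% and 18.6%), 18 (15.1% and 14.5%) and 14 (15.6% and 8.71%) in these comparisons. They gave 34 in N2 at 30 to 60 min (35.5% and 31.3%). With time as a replicate block 26 were called in N2 (30.7% and 28.2%) and 30 in CO (30.4% and 25.4%). Without a block CO against N2 stayed at 0, as it did over all ORFs. Time as a random replicate block (consensus correlation 0.023) gave 31 at 24 h and 5 at 60 and 120 min. Since 24 h is the only time of its period, that block cannot show how far the 24 h arrays depend on each other. Averaging the gases at each time gave 24 and 0. Leaving out a time or an array gave 5 to 19 in N2, 8 to 21 in CO, 21 to 33 at 24 h, 0 to 7 at 60 and 120 min, 2 to 18 in N2 at 30 to 60 min and 5 to 17 in CO at 30 to 60 min. Median centring and ORFs on at least 10 arrays kept each count within 1.5 times.

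For single genes 84 selected results, each a gene in a comparison, were followed under the alternatives. Of their values 1730 kept direction and side of the threshold, 269 lost the call, 16 gained one and 3 turned. Calls gained or lost by genes outside this selection are not in that tally. MRPL37 at 24 h ranged from -0.0595 without the N2 array of 24 h to 2.57 without the CO array. MRP35 in N2 ranged from -0.122 to 0.032, the latter without 60 min or the N2 array of 60 min. Leaving out single arrays or the lowest value of MRPL35, the random block and averaging the gases were chosen after the data were seen. Leaving both 24 h arrays out of the 24 h comparison was not possible. Signal over background was not used here, so its part in the spread is unknown.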
